A study of Homo sapiens with 6 samples.

Results

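The genes MET, MST1R, DDR1, FGFR1, FGFR2, FGFR3, FGFR4, PTK7 and TYRO3 encode receptor tyrosine kinases and a kinase-dead relative, and are described here in SNU216 cells, a long-established line from a human gastric cancer, after knockdown of the oxytocin receptor. They were chosen by symbol, with earlier results of these data known, and all 9 were among the 17318 genes listed for each library. Cells of the 3 siOXTR libraries had been under siRNA targeting OXTR, the oxytocin receptor gene, for 48 h and those of the 3 siControl libraries under control siRNA for the same 48 h. All cells were grown with fetal bovine serum. No source used here gives the siRNA sequences or says whether 1 or several targeted OXTR, so effects of the siRNA on other transcripts cannot be told apart from those of OXTR loss. Separate cultures are not stated for the numbered libraries, and the spread behind every p-value may therefore be technical. Values are FPKM, fragment counts divided by transcript length and library size, so levels may be compared between genes, but depth is unknown and total RNA per cell is not measured. In such bulk values, fewer cells that express a gene and less RNA per cell cannot be told apart.

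Receptor tyrosine kinases cross the plasma membrane once. Ligand binding outside the cell brings receptor chains together, the kinase domains phosphorylate each other's tails, and adaptor proteins docked there start signalling through RAS and ERK, PI3K and phospholipase C. MET is the receptor for hepatocyte growth factor (HGF) and RON, the product of MST1R, is the receptor for macrophage-stimulating protein (MSP, encoded by MST1). DDR1 is activated by collagen. FGFR1 to FGFR4 bind fibroblast growth factors together with heparan sulfate or Klotho co-receptors. PTK7 has an inactive kinase domain and works in planar cell polarity and Wnt signalling, and TYRO3 belongs with AXL and MERTK to the TAM receptors, which bind GAS6 and protein S. MET and FGFR2 are known as genes amplified in a share of gastric cancers.

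OXTR itself was at 39.37, 38.87 and 39.02 FPKM in the siControl libraries and at 4.76, 4.65 and 5.34 FPKM in the siOXTR libraries, so the labels held in every library. Epithelial keratin genes were high throughout, with KRT8, KRT18 and KRT19 between 1494.86 and 3223.88 FPKM over all libraries. Of the 8 epithelial markers, all tested, 4 fell and 2 rose (median log2 fold change -0.08). CDH1, EPCAM, CLDN4 and CLDN7 fell (log2 fold changes of -1.88, -1.0, -0.41 and -0.29), while KRT19 and ELF3 each rose by 0.27, which did not pass after TMM scaling (0.14 for both). Markers of other cells were low. The 7 fibroblast markers listed of 8 sought summed to between 1.66 and 2.10 FPKM in siControl and between 0.70 and 0.87 FPKM in siOXTR, with DCN at no more than 0.02 FPKM. The 8 blood and endothelial markers listed of 10 sought summed to between 10.48 and 12.27 FPKM and between 9.72 and 10.73 FPKM, most of it CD68, and PECAM1 reached no more than 0.12 FPKM. The part of these markers in the results was not tested. None of the 13 mitochondrially encoded genes sought as a sign of RNA quality was analysed here. A mean of 1 FPKM or more was reached by 11550 genes, which were tested. Of these, 2036 were lower and 4869 higher in siOXTR (limma, adjusted p under 0.05), and after TMM scaling, which removes a shift shared by most genes, 2806 were lower and 2267 higher. Their median log2 fold change, 0.128 in the deposited values, became 0.015 with TMM scaling.

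Start sites of the receptors are shown first for MET and MST1R, because these sister receptors changed by different amounts. RefSeq windows from 250 bases before to 50 bases after a start were matched by symbol for 8 of the 9 genes, with 22 windows in all (GRCh38.p14). Capitals mark the GC box letters GGGCGG or their reverse complement, the letters bound by SP1-type factors, here overlapping matches included. The MET window lies at chr7:116671946-116672245 on the plus strand and the MST1R window at chr3:49903824-49904123 on the minus strand. The MET window ends before the GENCODE gene start at 116672390, because RefSeq and GENCODE place the MET start differently.
MET: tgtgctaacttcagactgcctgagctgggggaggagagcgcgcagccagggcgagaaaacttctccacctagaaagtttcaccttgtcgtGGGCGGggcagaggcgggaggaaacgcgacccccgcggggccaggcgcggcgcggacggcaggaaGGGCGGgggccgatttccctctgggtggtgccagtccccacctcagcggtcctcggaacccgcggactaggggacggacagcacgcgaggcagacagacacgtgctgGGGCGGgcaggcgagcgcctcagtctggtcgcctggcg
MST1R: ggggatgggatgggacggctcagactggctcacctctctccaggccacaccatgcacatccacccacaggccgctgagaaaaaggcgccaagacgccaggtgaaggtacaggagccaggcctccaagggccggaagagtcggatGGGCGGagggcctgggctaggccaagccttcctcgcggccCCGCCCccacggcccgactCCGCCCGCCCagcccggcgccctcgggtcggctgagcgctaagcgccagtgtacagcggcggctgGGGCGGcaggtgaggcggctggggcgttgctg

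Both windows are rich in G and C, at 69.3% for MET and 71.3% for MST1R, against a median of 58.7% over all windows. MET holds 3 GC box matches and MST1R 5. Of the 22 windows of the 8 genes, 13 hold a match, and 45.0% of all 35116 windows do. Windows of the same gene are not independent, and DDR1 gives 8 and FGFR2 5 of the 22. Each of the 8 genes has a window with a match, and the share of all genes that do was not computed. Because the study is titled for YAP, a coactivator that acts on DNA through TEAD factors, the TEAD core letters GGAATG were searched on both strands too. They are in 1 of 8 DDR1 windows, 2 of 5 FGFR2 windows and 1 of 2 FGFR4 windows, and in none of the windows of MET, MST1R, FGFR3, PTK7 and TYRO3, while 14.0% of all windows hold them. The AP-1 letters TGANTCA are in 1 DDR1 window and 1 TYRO3 window (7.71% of all windows), and the E-box letters CACGTG in the MET window and 1 FGFR4 window (7.26% of all windows). These matches describe short stretches of the reference genome and say nothing of what binds there.

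Every receptor gene of the group that was expressed above the filter was lower after OXTR knockdown. Of the 9 genes 7 had a mean of at least 1 FPKM and were tested, and all 7 fell (limma, adjusted p under 0.05), where 17.6% of all tested genes were lower, 42.2% higher and 59.8% called in either direction. Because the genes were chosen with earlier results of these data known, this comparison is descriptive only. The libraries of the groups did not overlap for these 7 and for FGFR3, as for 19.2% of all tested genes in this direction and 64.4% in either. The median log2 fold change of the 7 was -0.81, and MET and PTK7 were at -1 or lower, as were 2.34% of all tested genes. These fold changes are on the scale of log2(FPKM + 1), which understates the change of low genes. The falls ran from 1.30-fold for MST1R to 2.66-fold for MET in mean FPKM. The summed FPKM of the 9 genes was 222 ± 10.9 in siControl and 110 ± 4.24 in siOXTR (SD, n = 3 each), a 2.03-fold difference, and the libraries of the groups did not overlap.

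**Figure D1:**
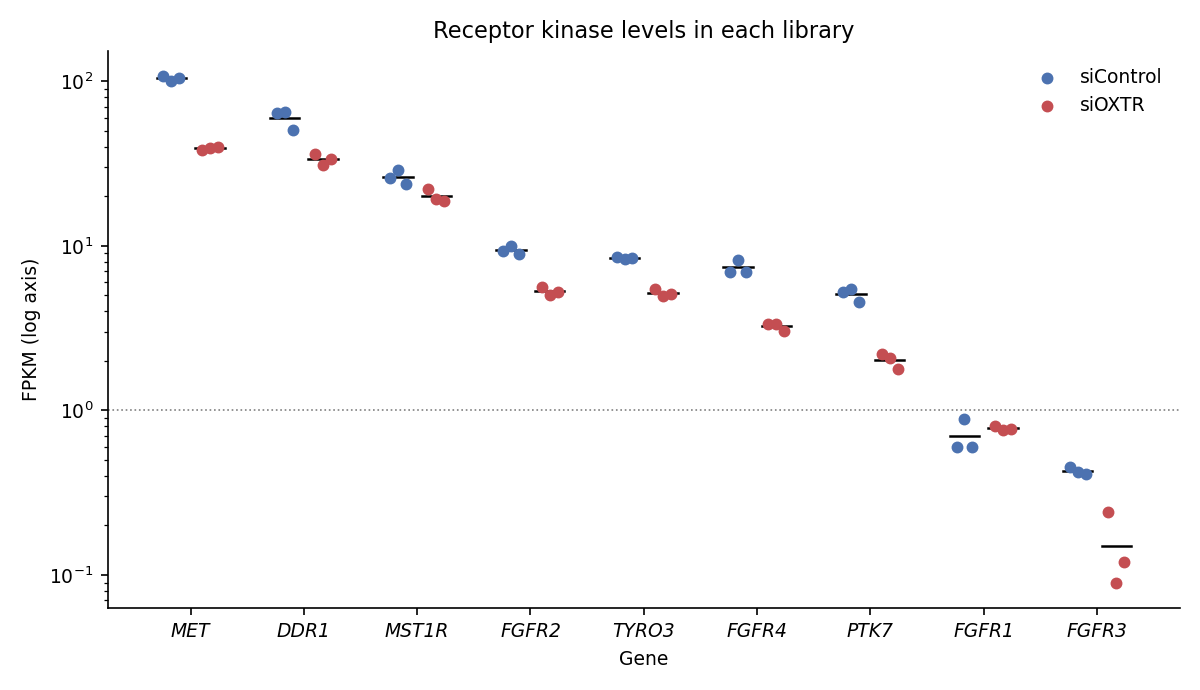
FPKM (log axis) of each of the 9 genes in each library, with siControl in blue, siOXTR in red and a black bar at the mean of 3 libraries; the dotted line marks 1 FPKM. The siOXTR libraries lie below all siControl libraries for 8 genes, with the largest gap among abundant genes at MET (104 against 39.1 FPKM), while FGFR1 overlaps between the groups.

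MET, on chromosome 7 from 116672390 to 116798386 (GRCh38), was the most abundant of the group. It stood at 107.52, 99.78 and 105.29 FPKM in siControl and at 38.07, 39.44 and 39.79 FPKM in siOXTR. Libraries within a group were close to each other and the groups lay far apart. The mean fell from 104 ± 3.98 to 39.1 ± 0.909 FPKM, to 37.5% of the siControl level, or by 1.39 on the log2 scale (SE 0.0516, adjusted p = 8.76e-10, limma). Only 0.684% of all tested genes had a log2 fold change as low, and MET was the third lowest of 27 tested receptor tyrosine kinase genes. Its percentile of level among all listed genes went from 96.3 to 87.0.

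MST1R, the gene of the MET relative RON, lies on chromosome 3 from 49887002 to 49903873 and changed least among the 7 tested genes. Its libraries were at 25.96, 28.88 and 23.69 FPKM in siControl and at 22.19, 19.17 and 18.85 FPKM in siOXTR, near each other but without overlap. It fell from 26.2 ± 2.60 to 20.1 ± 1.84 FPKM, or by 0.37 on the log2 scale (SE 0.0792, adjusted p = 0.00191, limma), and 11.1% of all tested genes were as low. MET was therefore 4.14, 3.45 and 4.44 times MST1R in the siControl libraries and 1.72, 2.06 and 2.11 times MST1R in the siOXTR libraries. This ratio within a library does not depend on how libraries are scaled. Its mean on the log2 scale differed by -1.03 between the groups (2.00 in siControl, 0.97 in siOXTR, exact permutation test, two-sided p = 0.1, the smallest that 3 against 3 can give).

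DDR1, the collagen receptor gene on chromosome 6 from 30876421 to 30900156, was the second most abundant. It stood at 64.57, 65.19 and 50.58 FPKM in siControl and at 36.24, 31.19 and 33.6 FPKM in siOXTR. The third siControl library was well below the other two but above every siOXTR library. DDR1 fell from 60.1 ± 8.26 to 33.7 ± 2.53 FPKM, 1.79-fold (log2 fold change -0.81, SE 0.0914, adjusted p = 2.21e-05, limma). Without siControl replicate 3 its log2 fold change was -0.93.

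Among FGF receptor genes, FGFR2 and FGFR4 carried almost all of the signal. FGFR2, on chromosome 10 from 121478334 to 121598458, was at 9.33, 10.01 and 8.95 FPKM in siControl and at 5.65, 5.00 and 5.26 FPKM in siOXTR. FGFR4, on chromosome 5 from 177086886 to 177098144, was at 6.96, 8.25 and 6.97 FPKM and at 3.35, 3.37 and 3.05 FPKM. Neither gene overlapped between the groups. FGFR2 fell 1.78-fold (log2 fold change -0.73, SE 0.0676, adjusted p = 2.64e-06, limma) and FGFR4 2.27-fold (log2 fold change -0.98, SE 0.076, adjusted p = 5.08e-07, limma). The ratio of FGFR2 to FGFR4 was between 1.21 and 1.34 in siControl and between 1.48 and 1.72 in siOXTR.

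FGFR1 and FGFR3 were below 1 FPKM in every library and were not tested. FGFR1 was at 0.60, 0.89 and 0.60 FPKM in siControl and at 0.80, 0.76 and 0.77 FPKM in siOXTR, and its groups overlapped. FGFR3 was at 0.45, 0.42 and 0.41 FPKM and at 0.24, 0.09 and 0.12 FPKM, with no overlap. With no filter on low values, FGFR3 passed the threshold with a log2 fold change of -0.31 (adjusted p = 0.00255, limma) and FGFR1 did not (log2 fold change 0.07, adjusted p = 0.515, limma). At these levels 1 FPKM added before the log flattens the change, and the values are rounded to 2 decimals.

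PTK7, the kinase-dead receptor gene on chromosome 6 from 43076268 to 43161719, was at 5.23, 5.45 and 4.55 FPKM in siControl and at 2.20, 2.09 and 1.78 FPKM in siOXTR. It fell 2.51-fold in mean FPKM, from 5.08 ± 0.469 to 2.02 ± 0.218 FPKM, the change nearest to that of MET. On the log2(FPKM + 1) scale its change was -1.01 (SE 0.0828, adjusted p = 8.48e-07, limma), and with 0.1 FPKM added in place of 1 it was -1.29. TYRO3, the TAM receptor gene on chromosome 15 from 41557675 to 41583586, was at 8.56, 8.31 and 8.39 FPKM and at 5.50, 4.93 and 5.08 FPKM. It fell 1.63-fold (log2 fold change -0.61, SE 0.063, adjusted p = 6.60e-06, limma). A pseudogene copy, TYRO3P, may share reads with TYRO3, so the TYRO3 level is less certain than the others.

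The order of levels was the same in both groups, from MET through DDR1, MST1R, FGFR2, TYRO3, FGFR4 and PTK7 to FGFR1 and FGFR3. In siControl every neighbour in this order was separated in all libraries, while in siOXTR FGFR2 and TYRO3 overlapped. The make-up of the summed FPKM shifted. MET gave between 43.9% and 50.3% of the sum in siControl libraries and between 33.3% and 37.2% in siOXTR libraries, and MST1R between 11.3% and 12.7% and between 17.4% and 19.4%. DDR1 went from between 24.2% and 28.7% to between 29.4% and 31.7%. Each of these 3 ranges was separated between the groups, as were the smaller shares of FGFR1, FGFR2 and TYRO3, which rose, and PTK7, which fell. The shares of FGFR3 and FGFR4 overlapped. Shares of a sum depend on each other, so a smaller MET share makes other shares larger.

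**Figure D2:**
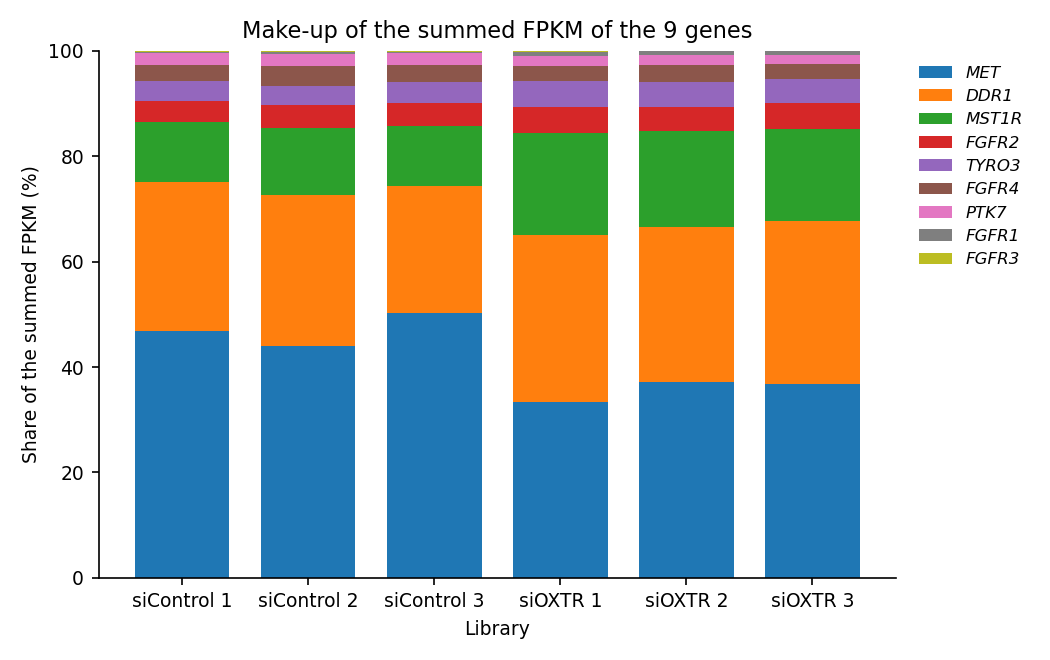
Share of the summed FPKM of the 9 genes (%) that each gene gave, stacked for each of the 6 libraries. The MET share is at most 37.2% in siOXTR and at least 43.9% in siControl, and the MST1R and DDR1 shares are larger in every siOXTR library.

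Ratios were taken for all 21 pairs of the 7 tested genes, and in 15 the log2 ratios of the groups did not overlap. How many pairs of other genes separate in this way was not computed. Among single tested genes 64.4% did not overlap in either direction, so separated ratios need not be particular to these genes. The exact permutation p was 0.1 for each of these 15 (two-sided), the smallest this design allows, and adjusted over the 21 pairs it was 0.14, so no pair passed 0.05. MST1R stood apart from each of the other 6 genes in this sense, with its log2 ratio to PTK7 up by 0.95 and to FGFR4 up by 0.80. MET, FGFR4 and PTK7, the 3 largest falls, were not separated from each other. The log2 ratio of MET to PTK7 changed by -0.085 and that of FGFR4 to PTK7 by 0.149, both with overlapping groups. DDR1 and FGFR2 kept a mean log2 ratio of 2.66 in siControl and 2.67 in siOXTR.

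Within siControl, replicate 3 was the lowest library for 4 of the 7 tested genes, MST1R, DDR1, FGFR2 and PTK7, and replicate 2 was the lowest for MET and TYRO3. In siOXTR replicate 1, 5 of the 7 tested genes were at the highest level of their group and MET at the lowest. All 7 calls held when any 1 library was left out. The files give 1 value per gene, so isoforms are not resolved, although GENCODE release 29 annotates 43 protein-coding transcripts for DDR1, 20 for FGFR2 and 6 for MET.

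Genes whose 6 values ran most like a member were sought by the root mean square difference of log2(FPKM + 1) from the siControl mean, over 6 libraries and 9025 genes of at least 5 FPKM. Such likeness rests mainly on the size of the difference between the groups. Nearest to MET was ADAM10, a sheddase gene that went from 97.8 to 36.5 FPKM (difference 0.0247), followed by the integrin gene ITGB1 (0.0324) and the lysosomal membrane protein gene LAMP3 (0.038). Nearest to PTK7 was CD276, which encodes an immune checkpoint surface protein (0.0185), and nearest to TYRO3 the transporter gene ABCB6 (0.0237). FGFR2 was nearest to the transporter genes SLC12A7 (0.0252) and ABCA2 (0.0292). For MST1R it was CD320, a receptor gene (0.0395), for DDR1 the adhesion receptor gene ADGRL1 (0.0485), and for FGFR4 VWA1 (0.0395), with GAS6, the TYRO3 ligand gene, at place 3 (0.0423).

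Most tested receptor tyrosine kinase genes outside the group fell as well. Of 49 others sought 43 were listed and 20 tested, of which 17 fell and none rose (median log2 fold change -0.70), or 19 and none after TMM scaling. Among all tested genes 17.6% were lower and 42.2% higher. The largest changes among them on the log2(FPKM + 1) scale were those of EPHB2, AXL, EGFR and EPHB6. In mean FPKM EPHB2 fell 3.00-fold, AXL, the TYRO3 relative, 2.70-fold (from 96.4 ± 2.95 to 35.7 ± 1.46 FPKM), EGFR 2.08-fold and EPHB6 2.02-fold. The less abundant INSR and LMTK2 fell 2.31-fold and 2.13-fold in mean FPKM. MERTK, the remaining TAM receptor gene, fell from 3.01 ± 0.206 to 1.93 ± 0.199 FPKM, and DDR2, the other collagen receptor gene, was at no more than 0.15 FPKM. MET ranked second in level among 52 listed receptor tyrosine kinase genes in siControl, after ERBB2, and the third in siOXTR, where RYK (76.8 FPKM), which fell only 1.16-fold, had passed it. The 7 tested members lay between the third (MET) and the 22nd place (MST1R) of 27 by size of fall on the log2(FPKM + 1) scale, which understates falls of low genes. Of 18 tested cytoplasmic tyrosine kinase genes 3 fell and 3 rose (median log2 fold change 0.04), so the lower share was near the 17.6% of all tested genes and the higher share below the 42.2%. After TMM scaling 6 were lower and none higher, against 2806 lower and 2267 higher of all 11550 tested genes. Without siControl replicate 1 the counts were 2 lower and 5 higher, without siControl replicate 3 they were 1 and 3, and without siOXTR replicate 2 they were 1 and 4. FYN, a SRC family kinase gene, fell from 6.06 ± 0.142 to 4.07 ± 0.196 FPKM, PTK2B, a focal adhesion kinase relative, rose from 15.3 ± 1.13 to 18.5 ± 0.967 FPKM, and SRC was at 35.5 FPKM in both groups. The rises of PTK2B, FER and PTK2 did not pass after TMM scaling or rescaling to an equal sum. Whether the receptor and cytoplasmic families differ as groups was not tested.

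**Figure D3:**
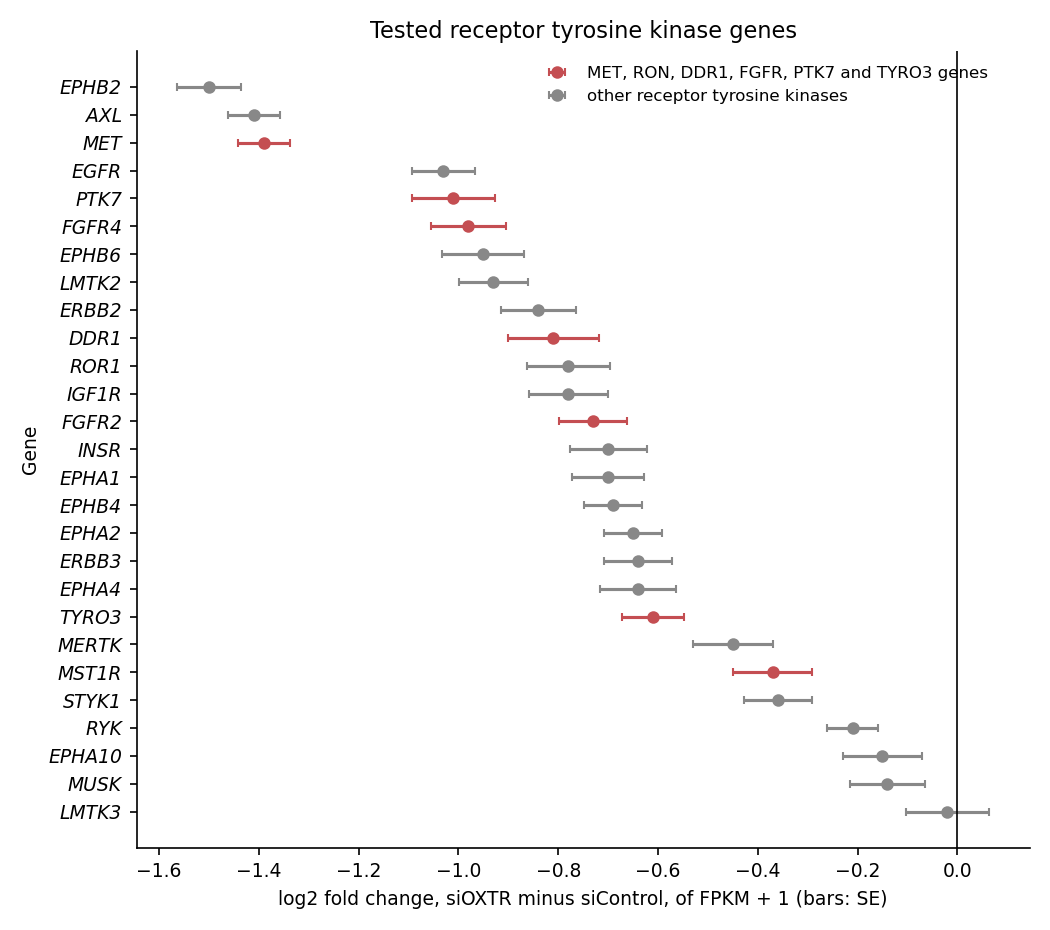
log2 fold change of FPKM + 1, siOXTR minus siControl, for the 27 tested receptor tyrosine kinase genes, with the SE of the limma fit as bars; the 7 tested genes described here are red and 20 others grey. All points lie below 0, of which LMTK3, MUSK and EPHA10 did not pass; MET is the third from the top at -1.39, and MST1R at -0.37 is near the lower end.

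Ligand genes were mostly low in these cells. HGF was listed at 0 in 5 libraries and at 0.01 FPKM in 1. MST1, which encodes the RON ligand, was at 1.78, 2.22 and 2.00 FPKM in siControl and at 2.72, 2.20 and 2.50 FPKM in siOXTR, with overlap. Its rise (log2 fold change 0.21, adjusted p = 0.0499, limma) was lost under most alternatives. It did not pass with 0.1 or 0.5 FPKM added in place of 1, with no filter, after TMM scaling or rescaling, with the replicate block, or without siControl replicate 1 or 3 or siOXTR replicate 1 or 3 (adjusted p from 0.0508 to 0.258, limma). Its pseudogene copies MST1L and MST1P2 may share MST1 reads. All 8 listed collagen genes that encode DDR1 ligands were below 1 FPKM in every library, with COL1A2 the highest at 0.52, 0.51 and 0.52 FPKM in siControl and 0.11, 0.15 and 0.13 FPKM in siOXTR. Of 13 listed FGF genes FGF2 alone was tested. It rose from 8.38 ± 0.450 to 10.0 ± 0.386 FPKM as deposited (log2 fold change 0.23, adjusted p = 0.00713, limma) but not after TMM scaling (log2 fold change 0.12, adjusted p = 0.139, limma) or rescaling (0.17, adjusted p = 0.0822). GAS6 was at 26.74, 28.71 and 26.02 FPKM in siControl and at 13.31, 13.23 and 12.83 FPKM in siOXTR. This TYRO3 ligand gene fell 2.07-fold (log2 fold change -0.99, adjusted p = 3.01e-08, limma), and PROS1, the gene of protein S, fell 1.73-fold from a low level of 1.75 ± 0.232 FPKM.

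HGF and MSP are made as inactive precursors that surface proteases cut. ST14, which encodes the activating protease matriptase, fell from 227 ± 12.1 to 88.7 ± 4.44 FPKM. The genes of its inhibitors SPINT1 and SPINT2 fell 1.82-fold and 1.48-fold. All 3 tested genes of that list were thus lower, while of all tested genes 17.6% were lower and 42.2% higher. Of the FGF co-receptor, heparan sulfate proteoglycan and related FGF-binding genes all 7 tested fell (median log2 fold change -0.81). The smallest falls were those of FGFRL1 and FGFBP1 (log2 fold changes of -0.45 and -0.23), which are not proteoglycan genes. HSPG2 (perlecan) fell 3.38-fold, SDC3 2.78-fold, SDC1 (syndecan 1) from 61.5 ± 3.67 to 27.6 ± 0.321 FPKM, and GPC1 (glypican 1) 1.81-fold. KL and KLB, the Klotho co-receptor genes, were below 1 FPKM in every library.

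Membrane proteins known to associate with MET gave 4 falls among 5 tested genes (median log2 fold change -1.03). Over all tested genes 17.6% were lower and 42.2% higher. The integrin genes ITGB4 and ITGA6 fell 3.40-fold and 3.23-fold, EGFR 2.08-fold and CD44 2.05-fold. PLXNB1, which encodes the semaphorin receptor plexin B1, was at 15.53, 16.66 and 13.46 FPKM in siControl and at 16.33, 13.96 and 14.96 FPKM in siOXTR, and did not pass (log2 fold change -0.01, adjusted p = 0.924, limma). Among 7 tested partners of PTK7 in planar polarity and Wnt signalling 5 fell and 1 rose (median log2 fold change -0.40). After TMM scaling 6 were lower and none higher, against 2806 lower and 2267 higher of all 11550 tested genes. FZD7, a Frizzled receptor gene, fell 2.79-fold, CELSR1 2.16-fold, VANGL1 1.65-fold and LRP6 1.43-fold. The rise was that of DVL2, a cytosolic Dishevelled gene (log2 fold change 0.17, adjusted p = 0.0268, limma). It did not pass after TMM scaling or rescaling, or without siControl replicate 1 or 3 or siOXTR replicate 1 or 2 (log2 fold changes of 0.13, 0.16, 0.18 and 0.15, adjusted p from 0.0519 to 0.113, limma).

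Among 6 tested genes of proteins that restrain these receptors 4 fell and 1 rose (median log2 fold change -0.66). Over all tested genes 17.6% were lower and 42.2% higher. PTPRF and PTPRJ, receptor phosphatase genes, fell 2.72-fold and 1.67-fold, LRIG1 2.42-fold and MUC20 1.61-fold. The intracellular phosphatase genes PTPN1 and PTPN2 had log2 fold changes of -0.01 and 0.21, of which the second passed as deposited and not after TMM scaling or rescaling. Of 9 tested shedding and intramembrane cleavage genes 7 fell and none rose (median log2 fold change -0.54), beside the same shares. This count was 6 without siControl replicate 1 or without siOXTR replicate 2 or 3. It was 8 without siControl replicate 3 and after TMM scaling or rescaling. MMP14 fell 3.03-fold, ADAM10 2.68-fold, NCSTN, a gamma-secretase subunit gene, 2.20-fold and ADAM17 1.80-fold. PSENEN, another gamma-secretase subunit gene, was at 34.5 ± 2.29 and 35.3 ± 2.44 FPKM.

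Of 20 tested genes of adaptors and effectors inside the cell none fell and 13 rose, where 17.6% of all tested genes were lower and 42.2% higher. The median log2 fold change of the 20 was 0.21, against 0.128 for all tested genes. After TMM scaling 5 were higher and 2 lower (median 0.09), against 2267 higher and 2806 lower of all 11550 tested genes. CBLB, a ubiquitin ligase gene of receptor turnover, rose from 10.7 ± 0.371 to 14.4 ± 0.123 FPKM (log2 fold change 0.40, adjusted p = 9.24e-05, limma). FRS2, the FGF receptor docking protein gene, rose from 4.85 ± 0.5 to 6.62 ± 0.193 FPKM, PLCG1 from 32.1 ± 2.34 to 42.0 ± 2.08 FPKM and SHC1 from 12.6 ± 0.570 to 16.1 ± 1.08 FPKM, and these 4 also rose after TMM scaling. GAB1, the docking protein gene of MET, had a log2 fold change of 0.26 and passed as deposited but not after TMM scaling (adjusted p = 0.0963, limma), rescaling (adjusted p = 0.0642, limma) or without siControl replicate 2 or siOXTR replicate 2 or 3 (log2 fold changes of 0.22, 0.24 and 0.23).

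Genes induced by ERK signalling were called in both directions. Of 15 tested 5 fell and 4 rose (median log2 fold change -0.05), near the 59.8% called in either direction among all tested genes, and after TMM scaling 7 fell and 2 rose. With siOXTR replicate 1, 2 or 3 left out, 3 fell, and 4, 3 and 4 rose. SPRY2 and SPRY1, feedback inhibitor genes, rose by 0.45 and 0.30 on the log2 scale and ETV4, an ETS factor gene, fell from 10.0 ± 0.760 to 7.97 ± 0.597 FPKM. IER3 rose by 0.24 as deposited and did not pass after TMM scaling or rescaling. DUSP6, the ERK phosphatase gene, was at 0.94, 1.2 and 1.05 FPKM in siControl and at 0.98, 0.90 and 1.08 FPKM in siOXTR, and did not pass (adjusted p = 0.608, limma). FOSL1 was at 107 ± 6.34 and 113 ± 4.13 FPKM.

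**Figure D4:**
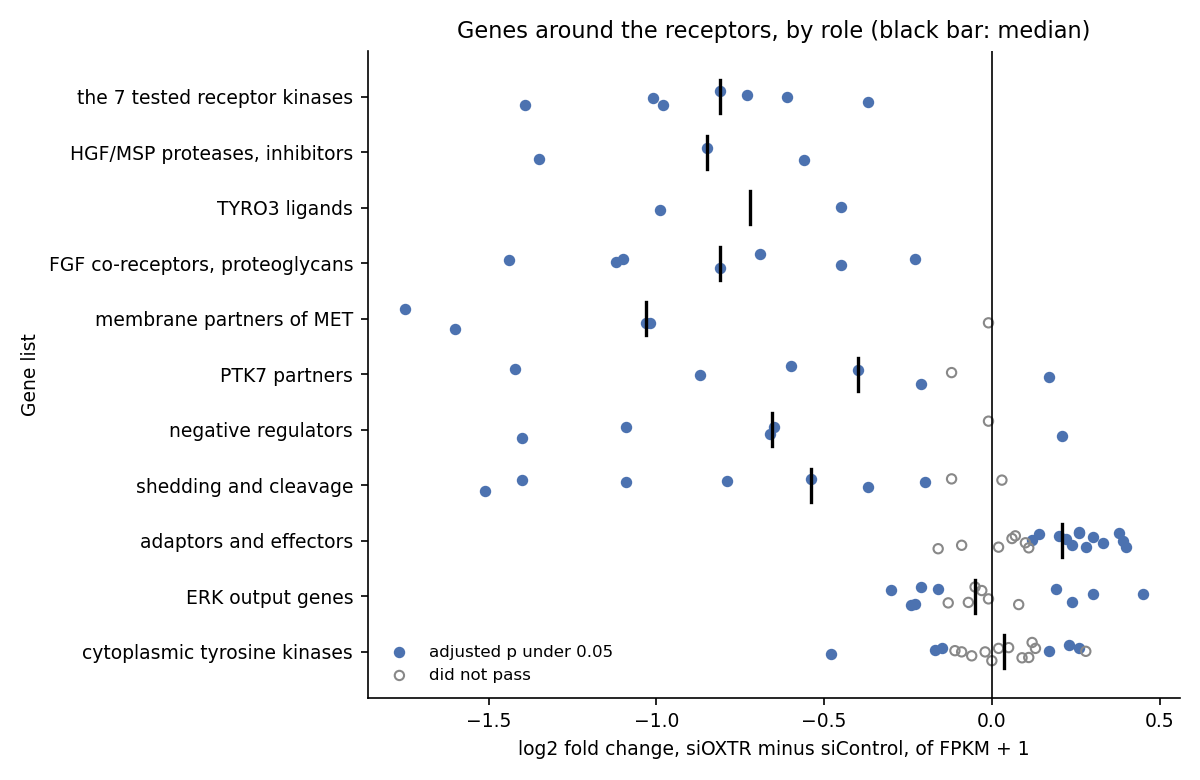
log2 fold change of FPKM + 1, siOXTR minus siControl, of the tested genes in each list, with filled points for adjusted p under 0.05 (limma), open points for genes that did not pass and a black bar at the median of each list. Medians of the receptors and the 7 lists under them lie between -1.03 and -0.40, and those of the adaptors, ERK output genes and cytoplasmic tyrosine kinases at 0.21, -0.05 and 0.04.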

How the data were processed

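RNA of 6 libraries was prepared for sequencing on the BGISEQ-500, as the labels' protocols state. The deposited values are FPKM, per the file headers, with 1 value of 2 decimals per gene and library, and the submitters' processing notes name GRCh38.p13 as build. No source used here names the aligner, quantifier, annotation or filters. Low values were searched for steps of whole fragments, but the best fits differed between libraries (coherence 0.17 to 0.295 of a possible 1), so depth is unknown. Sums of FPKM ranged from 417829 to 434167 over siControl libraries and from 446246 to 459595 over siOXTR libraries. No library pair shared identical values in more than 0.606% of tested genes.

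The test was limma 3.58.1 (R 4.3.3) of log2(FPKM + 1), for genes whose mean reached 1 FPKM. Group was the only term, with mean trend and robust prior, two-sided, and Benjamini-Hochberg adjustment over all 11550 genes. An earlier check on simulated data changed far fewer genes than were called here, so it does not cover so broad a change. TMM scaling was computed without weights, trimming 30% of ratios and 5% of levels at each end. Pairs of members were tested on log2 ratios by exact permutation (SciPy 1.17.1). Lists are described by counts and medians, with no set test. Named were the 9 members, OXTR, up to 4 called genes with the largest change per list, and up to 3 nearest genes per member. Other genes were named after their values were seen. Members and lists were chosen with earlier results of these data known.
Gene positions are from GENCODE release 29 and promoter windows from RefSeq (GRCh38.p14). Alternatives covered the pseudocount, the filter, scaling, the limma settings, the replicate block and each library left out.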

Additional observations from a re-analysis of the deposited data

How the results depend on the processing

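The 7 falls kept their direction and passed the threshold under each alternative in which the gene was tested: 0.1 or 0.5 FPKM added before the log, no filter, a filter at 5 FPKM (which leaves PTK7 untested and 6 calls), TMM scaling, rescaling to an equal sum, limma without trend or robust prior, the replicate block and each library left out. Log2 fold changes ranged from -1.51 to -1.37 for MET, -1.29 to -0.95 for PTK7, -1.16 to -0.90 for FGFR4, -0.93 to -0.75 for DDR1, -0.86 to -0.69 for FGFR2, -0.74 to -0.58 for TYRO3 and -0.49 to -0.30 for MST1R, whose adjusted p rose to at most 0.0122 (limma). With no filter 8 members were lower. All genes called numbered 6905 as deposited, 5073 after TMM scaling and between 5812 and 6699 with 1 library left out. Same-numbered libraries of the groups deviated together with correlations of 0.107, 0.004 and 0.16, so the numbers were not taken as pairs, and with the replicate block 7 members and 7205 genes were called. Of 21 ratios, 16 were separated with 1 FPKM added and between 16 and 18 with 1 library left out. Leaving out a library can only narrow a range, so that count could not fall and is no check. With 3 against 2 libraries the exact two-sided p, taken here as 2 times the smaller one-sided p, cannot go below 0.2. Of 20 adaptor genes 13 were called as deposited and 7 after TMM scaling or rescaling, and of the FGF ligand genes 1 was called as deposited, none after either scaling and 3 with no filter. Depth is unknown and limits what can be said of FGFR1, FGFR3 and HGF. The labels name no batch, and separate cultures are not stated.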
